A study of Mus musculus with 6 samples.

Results

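The genes described here encode the degradative machinery of the cell: the hydrolases and their cofactors inside the lysosome, proteins of its membrane, subunits of the proton pump that acidifies it, and genes of autophagy, the route that delivers cytoplasm to it. They were taken from the deposited table as every probe set whose single annotated gene symbol was one of 37 listed symbols. All 37 were on the array, through 89 probe sets, out of 18193 genes with a single symbol. They comprised 17 genes of the lysosomal lumen, 6 of its membrane, 5 V-ATPase subunits and 9 autophagy genes. The cells were V720, mouse breast cancer cells that are labelled as mammary epithelium and were grown in medium with 10% fetal calf serum. They received vehicle or 1 µM PD0332991 for 24 h, with 3 samples in each group, 1 array per sample, and the series text calls the triplicates biological. PD0332991 (palbociclib) inhibits CDK4 and CDK6, the kinases that phosphorylate the retinoblastoma protein at entry into S phase. A single line, dose and time were studied.

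Lysosomes break down protein, lipid, glycan and nucleic acid at acid pH, which the V-ATPase maintains by pumping protons across the membrane. Many lysosomal genes share a promoter element, the CLEAR element, that is built around the letters CACGTG and bound by the transcription factor TFEB and its relatives. TFEB is held in the cytoplasm when the kinase mTORC1 is active on the lysosomal surface. Autophagy wraps cytoplasm in a membrane studded with LC3 and GABARAP proteins, and the resulting vesicle fuses with the lysosome. Both routes are active in the mammary gland when it regresses after lactation.

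The promoter sequences are shown first because the core letters of the element occur there in several of these genes, both among those that rose and among those that did not. RefSeq windows of 250 bases before to 50 after the start of transcription (build GRCm38.p6) were at hand for 29 of the 37 genes. The letter strings searched were a pair, each of which reads the same on both strands: CACGTG, and the longer TCACGTGA, which contains it. CACGTG was present for 10 of the 29 genes (34.5%), against 8.09% of the 27025 genes in the promoter table and 7.15% of its 32851 windows of this length. TCACGTGA was present for 7 of the 29 (24.1%), against 1.12% of all genes and 0.974% of all windows. The genes with the longer string were Ctsa, Ctsd, Gla, Mcoln1, Cln3, Atp6v0d1 and Atp6v1a. A match is a description of these letters and not a measured binding site. The 4 stretches below are the 250 bases before the start, read 5′ to 3′ towards it, with CACGTG or TCACGTGA in capitals. They were chosen to set 2 genes that rose (Gla and Ctsd) beside 2 that did not pass the test (Lamp1 and Mcoln1).
Gla (chrX:134601006-134601255, minus strand): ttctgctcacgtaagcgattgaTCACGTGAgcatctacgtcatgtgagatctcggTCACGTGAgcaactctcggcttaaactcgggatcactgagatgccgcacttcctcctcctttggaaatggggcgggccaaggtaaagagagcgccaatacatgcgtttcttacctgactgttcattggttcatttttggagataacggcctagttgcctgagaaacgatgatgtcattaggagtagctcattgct
Ctsd (chr7:142387828-142388077, minus strand): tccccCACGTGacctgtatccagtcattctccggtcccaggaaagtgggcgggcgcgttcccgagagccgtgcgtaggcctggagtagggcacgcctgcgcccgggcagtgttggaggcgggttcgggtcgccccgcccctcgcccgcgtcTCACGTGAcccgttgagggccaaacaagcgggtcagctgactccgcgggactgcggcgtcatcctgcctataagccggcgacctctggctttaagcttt
Lamp1 (chr8:13158911-13159160, plus strand): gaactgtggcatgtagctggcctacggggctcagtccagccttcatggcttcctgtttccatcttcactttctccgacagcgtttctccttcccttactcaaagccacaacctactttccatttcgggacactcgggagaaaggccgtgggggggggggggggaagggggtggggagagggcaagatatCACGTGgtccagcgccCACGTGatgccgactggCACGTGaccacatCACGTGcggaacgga
Mcoln1 (chr8:3500269-3500518, plus strand): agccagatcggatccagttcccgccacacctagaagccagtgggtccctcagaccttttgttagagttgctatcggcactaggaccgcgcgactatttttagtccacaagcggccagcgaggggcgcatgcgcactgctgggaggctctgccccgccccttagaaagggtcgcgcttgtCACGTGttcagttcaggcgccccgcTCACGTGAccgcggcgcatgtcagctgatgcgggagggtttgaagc
In Gla, which encodes alpha-galactosidase A, 2 copies of TCACGTGA began 228 and 195 bases before the start. Ctsd, the gene of the aspartic protease cathepsin D, had 1 copy beginning 99 bases before the start and a shorter CACGTG at 245 bases. Lamp1, an abundant glycoprotein of the lysosomal membrane, held 4 copies of CACGTG within 61 bases of the start and none of the longer string. Mcoln1, a calcium channel of the lysosomal membrane, had both strings, at 71 and 46 bases. Over the genes with a window, CACGTG was found for 4 of 14 that rose and 6 of 15 that did not pass the test, and TCACGTGA for 2 of 14 and 5 of 15. Gusb, which showed the highest log2 fold change of the 37, had a window that held neither string.

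The arrays of both groups were at a like level, with median intensities of 71.3 to 72.7 (vehicle) and 69.6 to 71.1 (PD0332991), and gene values of 2 arrays correlated at 0.9969 to 0.9973 within a group and 0.9919 to 0.9927 between groups. Of 10 epithelial markers, Krt8, Krt18, Krt7, Epcam, Cdh1, Cldn7 and Esrp1 had mean vehicle intensities of 3782 to 12260, whereas the basal keratins Krt14 and Krt5 read 28.8 and 42.3 and the probe set of Krt19 read 1. Krt7 was called higher and Esrp1 lower with PD0332991, and neither was called after spike-in centring. All 7 measured proliferation genes fell with PD0332991, from a log2 fold change of -0.97 to -2.00. The 9 hybridization spike-in probe sets, which report control transcripts added to the labelled sample, averaged 9.74 (log2) on vehicle replicate 1 against 9.94 to 10.05 on the other 5 arrays. Centring the arrays on them lowers every log2 fold change by 0.13 and moves the median of all genes to -0.12. It also carries the spread of the spike-ins into every gene (SD 0.149 over the vehicle and 0.028 over the PD0332991 arrays). A call can thus be lost through the shift, through this spread, or through both. Results are therefore given on the scale as deposited, and beside it on the spike-in scale where the direction or the call differs.

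PD0332991 was compared with vehicle to ask which transcripts of the lysosome and of autophagy differ after CDK4 and CDK6 inhibition. On the scale as deposited, 19 of the 37 genes rose and none fell, by 1.12-fold to 1.58-fold. Fold changes here are on the log2(intensity + 16) scale, which makes them smaller than the ratio of the intensities, the more so for weak signals. The changes were small and went one way. Gusb, Atp6v0a1 and Cd68 had the largest log2 fold changes, at 0.66, 0.40 and 0.40. Across all 18193 genes, limma called 9.81% higher and 11.2% lower at an adjusted p under 0.05, beside 51.4% called higher among these genes. The members were chosen with earlier results of these data known, so the shares given here describe the list and are not a test of it. Of the 37, 35 lay above the median level of all genes. Among the 9096 genes above it, tested alone, 24.5% were called higher and 27.7% lower, beside 28 and 0 of these 35. The median log2 fold change of the 37 genes was 0.16 and that of all genes 0.005. A positive log2 fold change was found for 34 of the 37, against 51.1% of all genes.

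The call depended on the scaling of the arrays. After spike-in centring, 1 of the 37 genes (Gusb) was called higher and none lower, against 1.32% and 8.11% of all genes, the median was 0.03, and 22 had a positive log2 fold change against 23.7% of all genes. Leaving out vehicle replicate 1 as well gave 2 higher (Gusb and Atp6v0a1) and none lower, against 2.26% and 6.37% of all genes, and a median of 0.11. The distance between the median of the 37 genes and that of all genes was 0.15 as deposited and 0.14 after quantile normalization. Centring on the spike-ins or on the array median shifts all genes of an array alike. It therefore cannot change this distance, which stayed at 0.15 under both. Leaving out 1 array on the scale as deposited left 12 genes called without vehicle replicate 1, vehicle replicate 3, PD0332991 replicate 1 or PD0332991 replicate 3, 13 without PD0332991 replicate 2 and 14 without vehicle replicate 2. The same 12 genes were called in all 6 of these fits: Ctsh, Ctsl, Gla, Glb1, Gusb, Lipa, Neu1, Cd68, Atp6v0a1, Map1lc3a, Gabarapl1 and Wipi1.

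**Figure D1:**
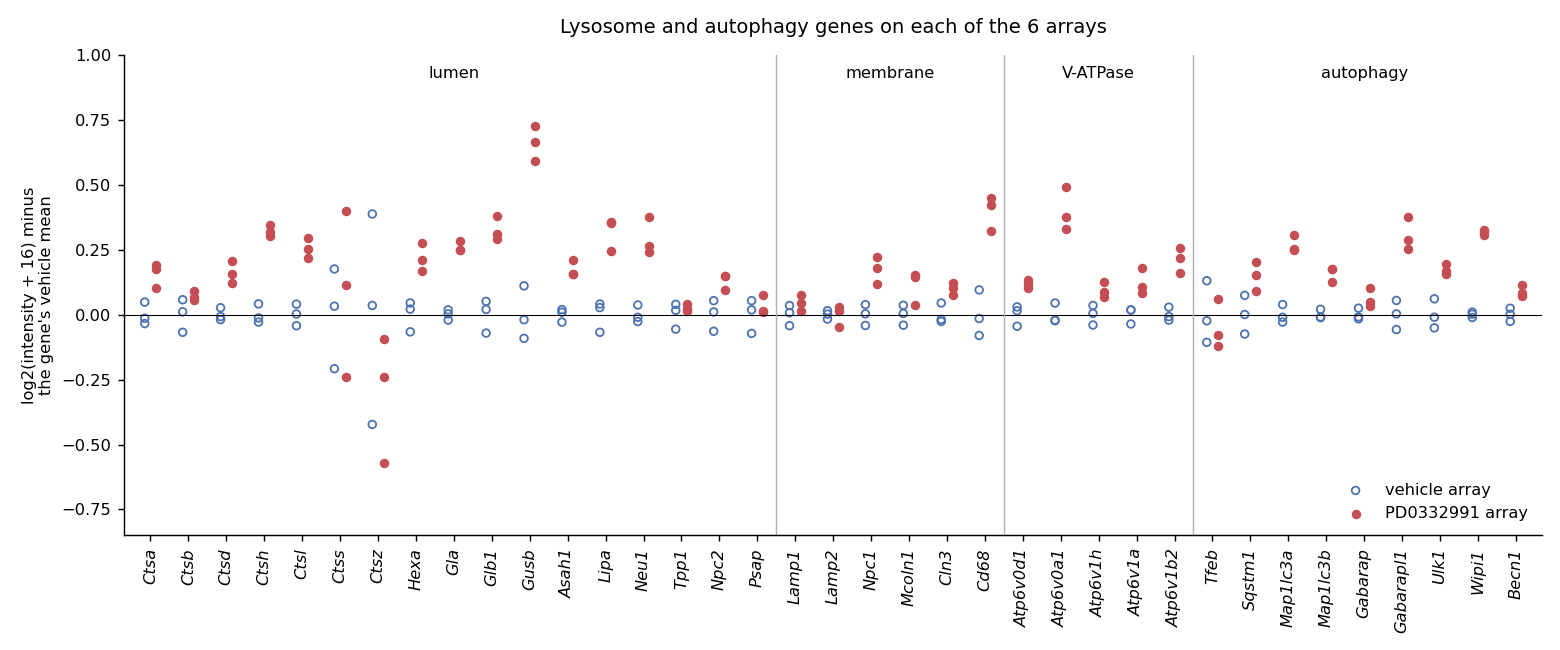
Log2(intensity + 16) of each of the 37 genes on each array, minus the gene's mean over the 3 vehicle arrays, by role. Open blue points are vehicle arrays and filled red points PD0332991 arrays, on the scale as deposited. In 30 genes every PD0332991 array lies above every vehicle array, and in the other 7 the groups overlap, with the widest scatter in the dim genes Ctss and Ctsz.

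On the scale as deposited, every PD0332991 array was above every vehicle array in 30 of the 37 genes, against 19.3% of all genes. It was below in none, against 19.6% of all genes. The 7 genes whose groups overlapped were Ctss, Ctsz, Tpp1, Psap, Lamp1, Lamp2 and Tfeb. As a mean over the 37 genes, relative to the vehicle mean, the vehicle arrays stood at -0.028, 0.024 and 0.004 and the PD0332991 arrays at 0.178, 0.166 and 0.178 on the log2 scale. As deposited, the treated arrays were close to each other and all above the vehicle arrays. This order does not carry over to the spike-in scale. Centring raises vehicle replicate 1, whose spike-ins averaged 9.74 (log2) against 9.94 to 10.05 on the other arrays. In this mean it then lies above the PD0332991 arrays. The same mean over all genes was -0.010 ± 0.007 (SD, n = 3) on the PD0332991 arrays.

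**Figure D2:**
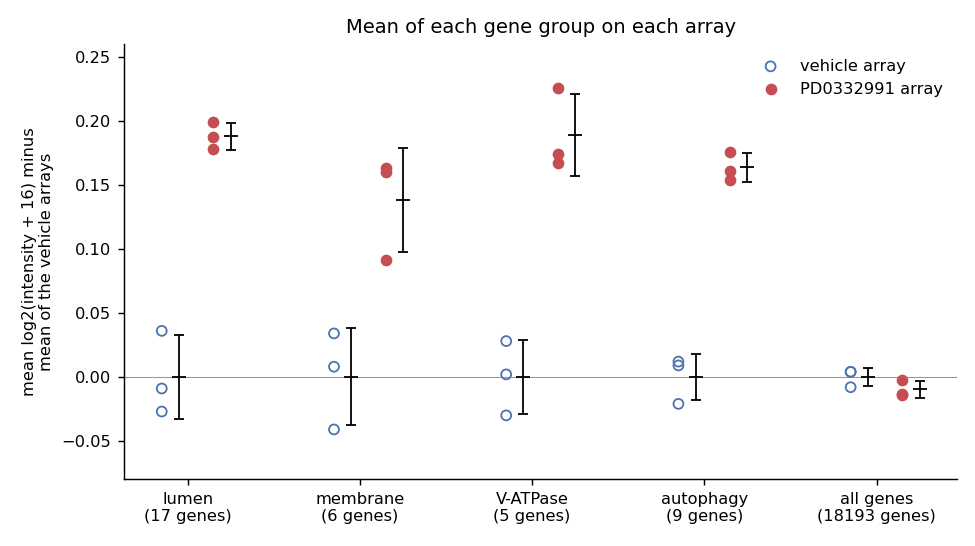
Mean log2(intensity + 16) over the genes of each role, and over all genes, on each array, minus the mean of the vehicle arrays, on the scale as deposited. Points are arrays, and the bars beside them give the mean and SD over 3 arrays. The means of the 4 roles on PD0332991 arrays are 0.188 (lumen), 0.138 (membrane), 0.189 (V-ATPase) and 0.164 (autophagy), while that of all genes is -0.010. Spike-in centring lowers each by 0.13.

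Of the 17 genes of the lysosomal lumen, 10 rose (58.8%, against 9.81% of all genes) and 7 did not pass the test. Among all genes above the median level, tested alone, 24.5% were called higher. The median log2 fold change of the 17 was 0.17 (0.05 with the arrays centred on the spike-ins). All 10 were hydrolases. Gusb, beta-glucuronidase, which removes glucuronic acid from glycosaminoglycans, had intensities of 135, 142 and 157 on the vehicle arrays and 238, 226 and 250 on the PD0332991 arrays. The groups were far apart, and the rise was 1.58-fold on the log2(intensity + 16) scale (log2 fold change 0.66, SE 0.07; limma adjusted p = 0.0019). It was the one gene still called after spike-in centring (log2 fold change 0.53, adjusted p = 0.00597). A second probe set of Gusb went the other way, from 125 ± 10.2 to 106 ± 1.39 (SD, n = 3 each), with a log2 fold change of -0.20 that did not pass the test (adjusted p = 0.0925 over all probe sets). The mean over both probe sets gave a smaller log2 fold change of 0.23, which was still called as deposited (adjusted p = 0.0122).

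Glb1, the lysosomal beta-galactosidase whose activity is used as a marker of senescent cells, read 648, 707 and 691 with vehicle and 849, 838 and 891 with PD0332991. The lowest treated array was above the highest vehicle array by 131, and the log2 fold change was 0.33 (SE 0.05, adjusted p = 0.00754). Ctsh, cathepsin H, an aminopeptidase, read 2122, 2098 and 2203 with vehicle and 2646, 2721 and 2669 with PD0332991. Its arrays agreed closely within each group, and it rose 1.25-fold (adjusted p = 0.00295). Lipa, the acid lipase that frees cholesterol and fatty acids from lipoproteins, read 457, 494 and 490 with vehicle and 619, 617 and 573 with PD0332991. Its lowest treated array, PD0332991 replicate 3, was still above all vehicle arrays, and the rise was 1.25-fold (adjusted p = 0.00998). After spike-in centring the log2 fold changes of these 3 genes fell to 0.20, 0.19 and 0.19, and none was called (adjusted p = 0.297, 0.326 and 0.314).

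The other hydrolases that rose were Neu1, a sialidase (log2 fold change 0.29), Gla (0.26), Ctsl, the cysteine protease cathepsin L (0.26), Hexa, the alpha subunit of beta-hexosaminidase (0.22), Asah1, acid ceramidase (0.17), and Ctsd (0.16). Asah1, Hexa and Ctsd lost their calls whenever any 1 array was left out, with adjusted p between 0.0523 and 0.0954. Of the 8 hydrolases that are not cathepsins 7 rose (87.5%, against 9.81% of all genes). The exception was Tpp1, a tripeptidyl peptidase, with 3922 ± 135 and 3988 ± 38.8 (SD, n = 3 each). Of the 7 cathepsins 3 rose (42.9%). Ctsa, a carboxypeptidase that protects Neu1 and Glb1, had a log2 fold change of 0.16 (adjusted p = 0.0559), and Ctsb, cathepsin B, 0.07 (adjusted p = 0.33).

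Ctss and Ctsz, cathepsins S and Z, were dim. Ctss read 7.07, 4.89 and 1.68 with vehicle and 1.28, 10.96 and 6.09 with PD0332991, and Ctsz read 9.89, 17.1 and 2.85 against 5.40, 7.67 and 1.01. At these levels the arrays of a group differed among themselves by several-fold and no difference between groups was detectable. The 2 lumenal proteins that are not hydrolases did not pass the test. Npc2, which hands cholesterol to the membrane protein Npc1, had a log2 fold change of 0.13 (adjusted p = 0.0973), and Psap, the precursor of the saposins that present sphingolipids to hydrolases, 0.03 (adjusted p = 0.679).

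In the lysosomal membrane 2 of 6 genes rose (33.3%, against 9.81% of all genes). The median of the 6 stood at 0.11, which turned to -0.02 after spike-in centring. Cd68, a heavily glycosylated protein used as a macrophage marker, read 216, 227 and 247 with vehicle and 313, 291 and 319 with PD0332991. The groups did not overlap and the rise was 1.32-fold (SE 0.06 on the log2 scale; adjusted p = 0.00874, and 0.163 after spike-in centring). On the same arrays 4 of 14 measured macrophage and leukocyte markers were higher and 1 lower, against 9.81% and 11.2% of all genes. After spike-in centring none was higher and 1 was lower, against 1.32% and 8.11% of all genes. Their summed intensity was 2254 to 2336 on the vehicle and 2420 to 2573 on the PD0332991 arrays, most of it from Cd14 (1740 ± 39.1 and 1905 ± 73.2, SD, n = 3 each, adjusted p = 0.0943). The 4 called higher were Ptprc, the common leukocyte antigen CD45 (11.6 ± 1.67 and 18.2 ± 1.02, SD, n = 3 each), Adgre1, Tyrobp and Fcer1g. Their mean vehicle intensities were 11.6 to 123. With 1 array left out, 0 to 3 markers were called higher. Laptm5 was called lower on both scales (log2 fold change -0.38 as deposited, adjusted p = 0.0484, and 0.0285 after spike-in centring). The other 9 were not called as deposited, and C1qa was at 1.00 on all 6 arrays. The part of these markers in the rise of Cd68 was not tested.

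Npc1, which exports cholesterol from the lysosome, read 486, 514 and 502 with vehicle and 586, 544 and 570 with PD0332991. The highest vehicle and the lowest treated array were 29.5 apart, beside SDs of 14.4 and 21.1, and the call (log2 fold change 0.17, SE 0.04, adjusted p = 0.0428) did not hold in any of the 6 fits that left out an array. Lamp1 had 7355 ± 200 and 7588 ± 162 (SD, n = 3 each), a log2 fold change of 0.05 (adjusted p = 0.49). Mcoln1 and Cln3, the latter mutated in a juvenile form of neuronal storage disease, had log2 fold changes of 0.11 and 0.10 (adjusted p = 0.166 and 0.121). On its probe set with the highest mean, Lamp2, the receptor of chaperone-mediated autophagy in one of its splice forms, read 6091 ± 68.4 and 6085 ± 176 (SD, n = 3 each), with no difference detectable (log2 fold change -0.002, SE 0.04).

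Among the 5 V-ATPase genes all had positive log2 fold changes as deposited, against 51.1% of all genes. In all 5 the PD0332991 arrays lay above the vehicle arrays without overlap, against 19.3% of all genes. As deposited 2 rose (40.0%, against 9.81% of all genes). The median was 0.12, and -0.004 after spike-in centring, where 2 of the 5 stayed positive against 23.7% of all genes. Atp6v0a1, a subunit of the membrane sector through which protons pass, read 639, 670 and 639 with vehicle and 918, 847 and 819 with PD0332991. The treated arrays were all above by at least 149, and the rise was 1.32-fold (SE 0.05 on the log2 scale; adjusted p = 0.0054). After spike-in centring the adjusted p was 0.156, and leaving out vehicle replicate 1 as well gave 0.0384. Its 3 other probe sets had log2 fold changes of -0.11 to 0.10, and the mean over all 4 gave 0.11 (adjusted p = 0.212).

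Atp6v1b2, a nucleotide-binding subunit of the cytoplasmic sector, read 1530, 1570 and 1516 with vehicle and 1793, 1723 and 1841 with PD0332991. It rose 1.16-fold (adjusted p = 0.0166), a call kept in 2 of the 6 fits that left out an array. The mean over its 4 probe sets gave a log2 fold change of 0.07 (adjusted p = 0.444). Atp6v1a, the catalytic subunit, Atp6v0d1, which joins the sectors, and Atp6v1h, a regulatory subunit, had log2 fold changes of 0.12, 0.12 and 0.09 with adjusted p of 0.0962, 0.0754 and 0.159.

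Of the 9 autophagy genes 5 rose (55.6%, against 9.81% of all genes). The median of the 9 stood at 0.16 (0.03 with the arrays centred on the spike-ins). Wipi1, which binds the phosphoinositide of the forming autophagosome, read 1190, 1197 and 1180 with vehicle and 1493, 1472 and 1484 with PD0332991. The arrays of each group were close, with SDs of 8.56 and 10.5, and the rise was 1.24-fold (log2 fold change 0.32, SE 0.03, adjusted p = 0.00183). All 6 of its probe sets had positive log2 fold changes, and 3 were called. Gabarapl1, a member of the GABARAP family, read 2710, 2826 and 2930 with vehicle and 3446, 3364 and 3664 with PD0332991. It rose 1.24-fold (adjusted p = 0.0112), and both of its probe sets were called.

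Map1lc3a, LC3A, read 2547, 2580 and 2670 with vehicle and 3089, 3101 and 3220 with PD0332991, a 1.21-fold rise with no overlap (adjusted p = 0.00647). These readings came from an _x_at probe set. With _x_at and _s_at probe sets left out, Map1lc3a stood at 0.235 on the log2 scale and lost its call (adjusted p = 0.0879). The mean over its probe sets kept the call (0.252, adjusted p = 0.023). Ulk1, the kinase that starts autophagy, read 674, 730 and 694 with vehicle and 780, 803 and 788 with PD0332991. Its call (log2 fold change 0.17, SE 0.04, adjusted p = 0.0364) was kept in 1 of the 6 fits that left out an array. Map1lc3b, LC3B, rose by 0.16 on the log2 scale (adjusted p = 0.0267), a call lost in every fit that left out an array. Over all probe sets this probe set had an adjusted p of 0.0545, and 1 of the gene's 4 was called (log2 fold change 0.22). Its second strongest probe set went the other way, from 4807 ± 149 to 4600 ± 27.7 (SD, n = 3 each), without overlap. That log2 fold change of -0.06 did not pass the test (adjusted p = 0.412). After spike-in centring none of the 5 was called.

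The other 4 autophagy genes did not pass the test. Sqstm1, the cargo receptor p62, had 2940 ± 152 and 3259 ± 129 (SD, n = 3 each, log2 fold change 0.15, adjusted p = 0.119). Becn1, Beclin 1, of the lipid kinase complex that marks the forming membrane, had a log2 fold change of 0.09 (adjusted p = 0.133), and its 5 probe sets lay between 0.07 and 0.10. Gabarap had 0.06 (adjusted p = 0.307). Tfeb, the transcription factor of the CLEAR element, read 310, 347 and 292 with vehicle and 297, 329 and 288 with PD0332991. Its groups overlapped throughout (log2 fold change -0.05, SE 0.08, adjusted p = 0.739). The array measures its transcript and not where the protein is in the cell.

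**Figure D3:**
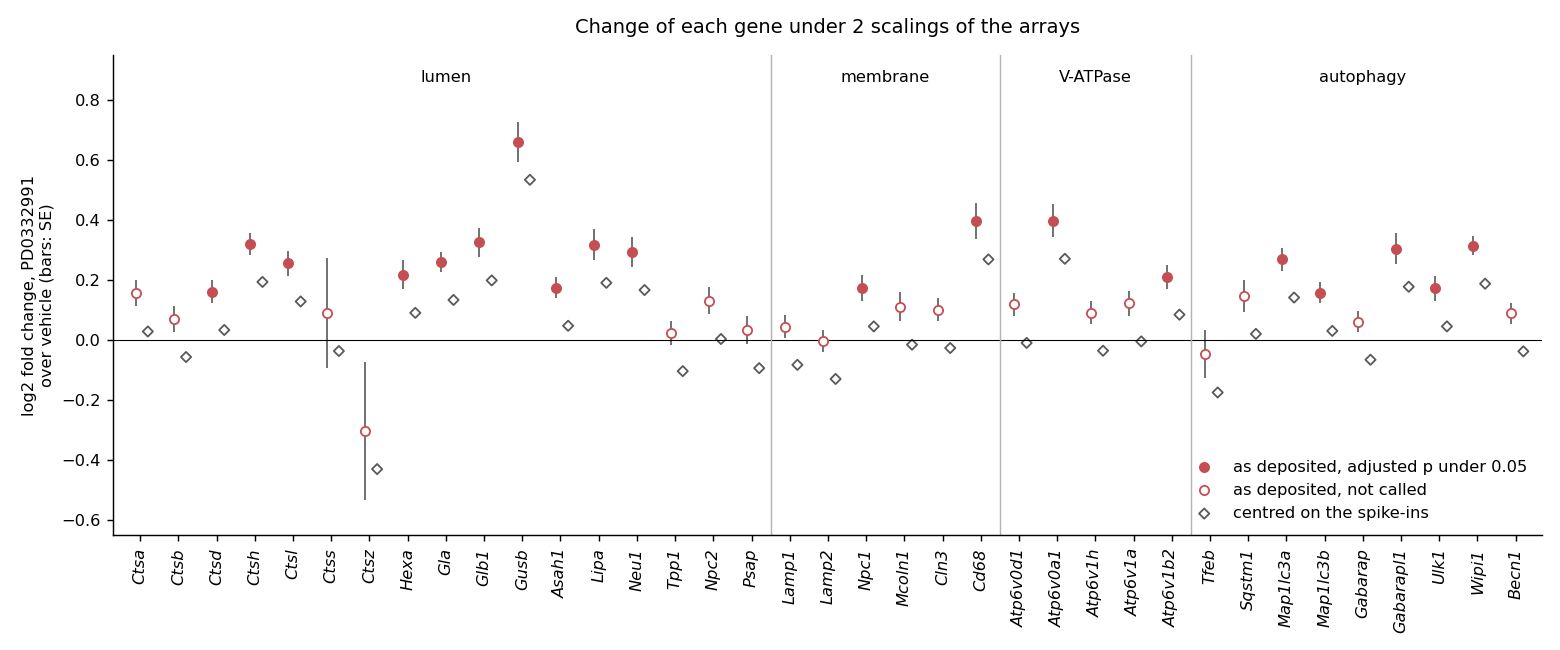
Log2 fold change of PD0332991 over vehicle for each gene, by role, with the SE from limma as bars (circles, scale as deposited, filled where the adjusted p is under 0.05) and the same value after centring the arrays on the spike-ins (diamonds). Filled circles mark 19 genes, all above 0. The diamonds lie lower by 0.13 throughout, so that 12 genes with a positive value as deposited fall below 0, none of them among the 19.

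Probe sets of a gene did not always agree. When all 45037 probe sets were tested together, 30 of the 89 probe sets of these genes were called higher and none lower, against 6.00% and 8.19% of all probe sets. They belonged to 21 genes, and 76 of the 89 had positive log2 fold changes. In Ctsh, Lipa and Gabarapl1 every probe set was called, the 3 of Lipa at log2 fold changes of 0.25 to 0.42. Conversely, 5 genes that did not pass the test on their strongest probe set had another probe set that was called: Ctsb, Tpp1, Npc2, Lamp2 and Atp6v1a. Lamp2 separated into pairs, with log2 fold changes of 0.28 and 0.26 (adjusted p = 0.0126 and 0.0188) on one pair and 0.035 and -0.002 on the other. Ctsb had values of 0.60 and 0.33 on probe sets reading 186 ± 8.33 and 286 ± 13.8 with vehicle (SD, n = 3 each), and 0.04 to 0.09 on its other 3. Npc2 had 0.59 (adjusted p = 0.00322) on a probe set that rose from 260 ± 10.1 to 401 ± 25.8 (SD, n = 3 each), beside 0.13 on both of its strongest. In Tpp1 the second probe set rose from 681 ± 11.1 to 850 ± 31.5 (SD, n = 3 each), by 0.31 on the log2 scale (adjusted p = 0.0102). The second probe set of Ctsl was dim, at 19.2 ± 3.86 and 11.1 ± 3.20 (SD, n = 3 each), with a log2 fold change of -0.38 (adjusted p = 0.0874), so that the mean over both turned to -0.06. With the mean over all probe sets of a gene, the calls of Gla (log2 fold change 0.21, adjusted p = 0.0546), Map1lc3b (0.11, adjusted p = 0.319), Ulk1 (0.13, adjusted p = 0.173) and, with its 1 probe set unchanged but fewer genes called in all, Npc1 (0.17, adjusted p = 0.051) were also lost. The same mean brought a call for Ctsb (0.227, adjusted p = 0.0125), Tpp1 (0.168, adjusted p = 0.0375) and Atp6v1a (0.185, adjusted p = 0.0397). Ctsd, Npc1 and Ulk1, called among genes, had no probe set called when all probe sets were tested. Which transcript form each probe set measures was not analysed here.

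**Figure D4:**
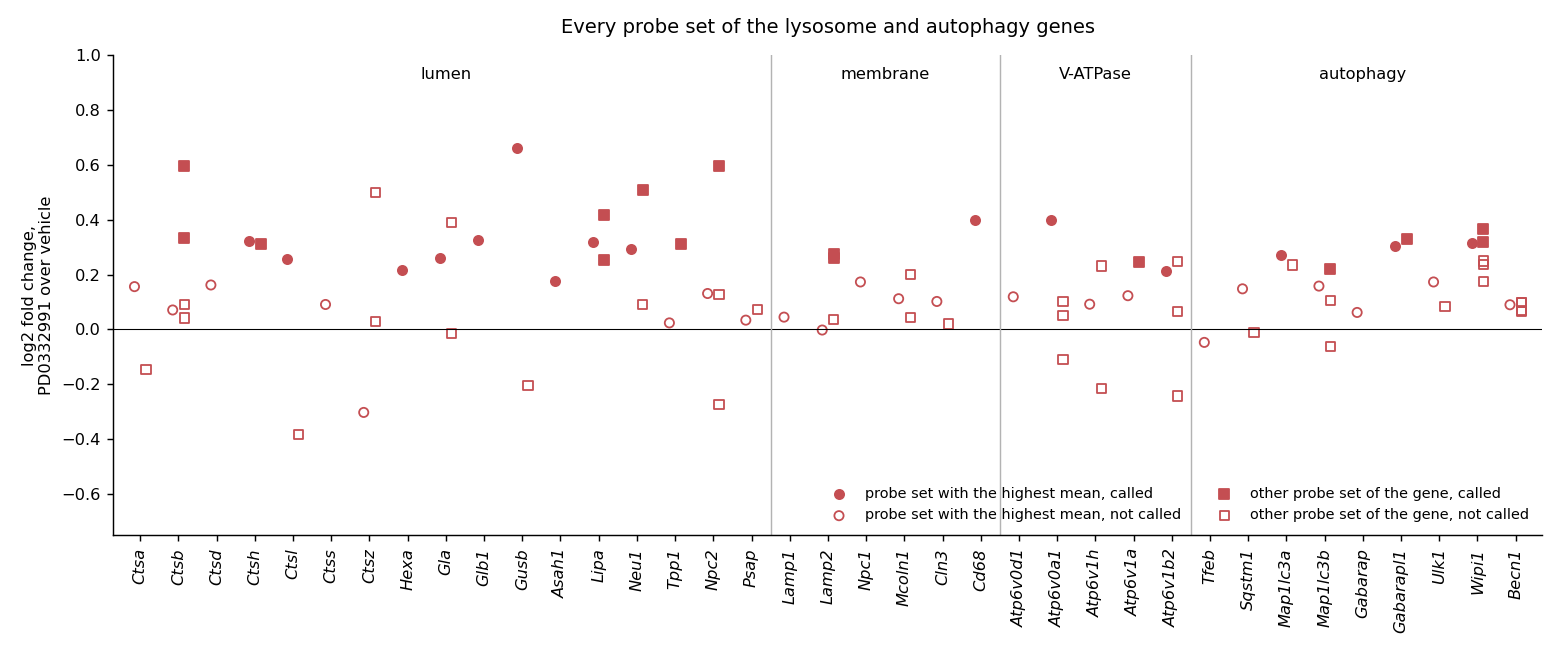
Log2 fold change of PD0332991 over vehicle for each of the 89 probe sets, by gene, on the scale as deposited. Circles are the probe set with the highest mean log2 value, squares the other probe sets, and filled symbols have an adjusted p under 0.05 over all 45037 probe sets. All 30 filled symbols are above 0, and several lie on squares of genes whose circle is open, such as Ctsb, Npc2, Tpp1 and Lamp2. After spike-in centring every value lies lower by 0.13.

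A wider set of genes of the same pathways is given for comparison. Of 132 further measured genes, 28 rose and 3 fell, against 9.81% and 11.2% of all genes. The share called higher was 21.2%, beside 51.4% of the 37. The median log2 fold change of the 132 genes was 0.04, which turned to -0.09 with spike-in centring. On that scale 1 rose and 1 fell, against 1.32% and 8.11% of all genes. The difference between these shares was not tested. The 132 genes were not matched by level to the genes they are set against, nor were the single lists below. Among all genes above the median level, tested alone, 24.5% were called higher as deposited. Further lumenal proteins rose in 7 of 28 cases. Among them were Dnase2a, the acid DNase, with a log2 fold change of 0.56 (adjusted p = 0.00255, and 0.03 after spike-in centring), Ctso, cathepsin O, with 0.49, and Gm2a, the activator protein that works with Hexa, with 0.40. Further membrane proteins rose in 3 of 16 cases (18.8%, against 9.81% of all genes). These were Ostm1, a partner of a chloride transporter, Tmem175, an ion channel, and Slc17a5, a sialic acid exporter, at 0.21, 0.30 and 0.16. Each of these calls was lost in at least 5 of the 6 fits that left out an array.

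Of 17 other V-ATPase genes, 6 rose (35.3%) and 2 fell, against 9.81% and 11.2% of all genes. The count that fell was thus near the share of all genes called lower. Atp6v0e2, a small subunit of the membrane sector, rose from 263 ± 9.99 to 384 ± 23.6 (SD, n = 3 each), and Atp6v0a2, a second form of the subunit encoded by Atp6v0a1, and Atp6ap1, an accessory protein, had log2 fold changes of 0.21 and 0.28. Atp6v1b1, the tissue-restricted counterpart of Atp6v1b2, had 1520 ± 96.7 with vehicle and 974 ± 19.1 with PD0332991 (SD, n = 3 each) and fell by 0.63 on the log2 scale (adjusted p = 0.00119). It was also called lower after spike-in centring (adjusted p = 0.000131) and in all 6 fits that left out an array. Atp6v1c2, a tissue-restricted form of subunit C, fell by 0.21 on the log2 scale (adjusted p = 0.0135, and 0.0877 after spike-in centring).

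Of 32 further autophagy genes 9 rose (28.1%) and none fell, against 9.81% and 11.2% of all genes. They were led by Atg4a, a protease that trims LC3-family proteins (852 ± 14.3 to 1124 ± 26.6, SD, n = 3 each), Wdr45, a relative of Wipi1 (log2 fold change 0.32), and Bnip3, a mitophagy receptor (0.46). Of 27 regulators of TFEB and mTORC1, 2 rose (7.41%) and 1 fell, a share no higher than the 9.81% of all genes called higher: Ddit4, an mTORC1 inhibitor, had a log2 fold change of 0.32 (adjusted p = 0.00879), Sesn2, a leucine sensor, 0.16 (adjusted p = 0.048), and Fnip2, a folliculin partner, -0.18 (adjusted p = 0.0356). The calls of Sesn2 and Fnip2 were lost whenever any 1 array was left out. Of 12 genes that sort hydrolases to the lysosome, Igf2r, a mannose 6-phosphate receptor, was the 1 called higher (8.33%, near the 9.81% of all genes; log2 fold change 0.26, adjusted p = 0.0336), a call that held in none of the 6 fits with an array left out. After spike-in centring none of the autophagy, regulator or sorting genes was called.

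**Figure D5:**
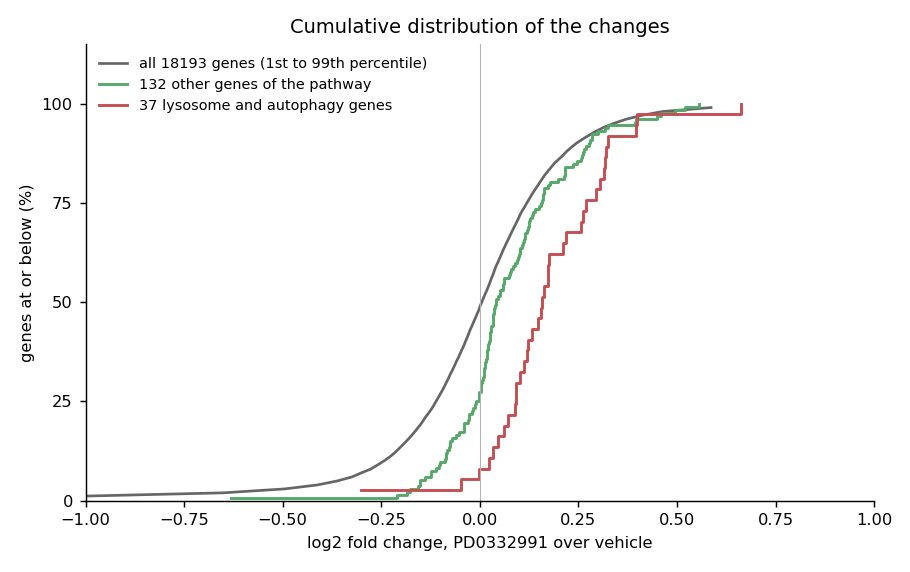
Cumulative share of genes (%) at or below each log2 fold change of PD0332991 over vehicle, on the scale as deposited, for the 37 lysosome and autophagy genes (red), 132 other genes of the same pathways (green) and all 18193 genes (grey, from the 1st to the 99th percentile). The curves cross 50% at 0.16, 0.04 and 0.005. Spike-in centring moves all 3 to the left by 0.13.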

How the data were processed

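Total RNA was biotin-labelled and hybridized to Affymetrix arrays, per the labels' protocols. The table deposited by the authors gives intensities on a linear scale for 45101 probe sets on each array. The summarisation and scaling steps are not given in the sources used here. Samples were grouped by their titles, and the 6 arrays were used as 3 against 3. The 64 control probe sets were left out. Platform annotation gave 1 symbol to 34945 probe sets, and 18193 genes were tested, each on its probe set with the highest mean log2 value. Of these, 18031 matched RefSeq by gene number. Intensities were turned into log2(intensity + 16), so that fold changes of dim genes are understated. The groups were compared with lmFit and eBayes of limma 3.58.1 (R 4.3.3), with two-sided p-values adjusted by Benjamini-Hochberg over the 18193 genes, called under 0.05, without a replicate block. Every member was named, with values per array for up to 4 called members of each role by size of change. Of the other lists, up to 3 called genes in each direction were named. The members and lists were chosen with earlier results of these data known. The procedure was tested on simulated data. Figures were drawn with matplotlib 3.10.9. The number of arrays limits the precision.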

Additional observations from a re-analysis of the deposited data

How the results depend on the processing

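The count of 19 lysosome and autophagy genes called higher became 1 with the arrays centred on the spike-ins, 2 without vehicle replicate 1 as well, 10 at an adjusted p under 0.01, and 12 to 14 when 1 array was left out. With the replicate number as a block it was 11. The count over all genes, 1785 as deposited, fell alongside: 240 after spike-in centring, 412 without vehicle replicate 1 as well, 708 at the stricter threshold, 1096 to 1252 with 1 array left out and 895 with the block. No pairing of same-numbered arrays was detected, as their deviations from the group means correlated at 0.008, -0.051 and 0.05. With 3 arrays per group, these values do not settle whether same-numbered arrays were handled together. The median log2 fold change was 0.187 after median centring, 0.031 after spike-in centring, 0.106 without vehicle replicate 1 as well, and 0.146 to 0.175 with 1 array left out. No lysosome or autophagy gene was called lower under any of these settings, nor under another pseudocount, leaving out dim genes, averaging probe sets, leaving out _x_at and _s_at probe sets, trend and robust moderation, or array weights. Signs turned after spike-in centring for Ctsb (-0.056), Ctss (-0.036), Tpp1 (-0.103), Psap (-0.093), Lamp1 (-0.082), Mcoln1 (-0.015), Cln3 (-0.026), Atp6v0d1 (-0.009), Atp6v1h (-0.035), Atp6v1a (-0.004), Gabarap (-0.065) and Becn1 (-0.037), none of them called. Without vehicle replicate 1 as well, Ctsb stood at -0.009, Tpp1 at -0.049, Psap at -0.048 and Lamp1 at -0.022. The mean of probe sets turned Ctsl to -0.063, Ctsz to 0.076 and Lamp2 to 0.142. Ctsz was at 0.030 without _x_at and _s_at probe sets, Tfeb at 0.001 after quantile normalization and Lamp2 at 0.027 after median centring. With 1 array left out, Ctss ranged from -0.064 to 0.257, Lamp2 from -0.017 to 0.022, Psap from -0.002 to 0.061, Tfeb from -0.101 to 0.018 and Tpp1 from -0.004 to 0.044. The cause of these shifts was not tested.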
